A study of Homo sapiens with 9 samples.

Results

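The genes described here encode 10 of the cytosolic aminoacyl-tRNA synthetases: AARS1, GARS1, WARS1, SARS1, MARS1, NARS1, IARS1, EPRS1, LARS1 and TARS1. They were chosen by symbol. A platform annotation gave 9 of the 10 genes at least 1 probe set of their own, 12 probe sets in all among the 22215 tested. WARS1 had 2 probe sets, EPRS1 had 3 and the other 7 genes had 1 each. All 3 probe sets annotated for MARS1 also carry the symbol of a microRNA gene, so MARS1 was given no value. Where a gene had several probe sets, the brightest over all arrays stands for it and the others are given beside it.

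Each synthetase joins 1 amino acid to its matching transfer RNAs, so together the enzymes supply the charged tRNAs that ribosomes use. IARS1, LARS1, MARS1 and EPRS1 belong to the multi-synthetase complex, while AARS1, GARS1, SARS1, NARS1, TARS1 and WARS1 act outside it. Many cytosolic synthetase genes are targets of the transcription factor ATF4, which is made when the integrated stress response lowers general translation, for instance under amino acid shortage or stress of the endoplasmic reticulum. WARS1 is also an interferon-induced gene.

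The study asked how the forms of choline acetyltransferase (ChAT), the enzyme that makes acetylcholine, change gene expression in IMR32, a human neuroblastoma cell line that carries an amplified MYCN gene. One group stably expressed the 69-kDa form, another stably expressed the 82-kDa form, and the third was labelled wild type. Each group had 3 arrays (n = 3 in every group mean below), described as biological replicates and numbered in the sample titles. Whether a stable line was a clone or a pool, which promoter and vector drove ChAT, and whether the wild-type cells carried an empty vector, the labels do not say. As every array of a form comes from the same line, form and line cannot be told apart.

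CHAT itself, measured by 1 probe set, read 1066, 423 and 1067 with 82-kDa ChAT, 256, 175 and 177 with 69-kDa ChAT, and 148, 125 and 114 in wild type. MYCN read 4181 to 6118 in the lines. In the group labelled wild type it read 62.5 to 120.5, which goes against that label for an IMR32 culture. Those arrays are called wild type below by their label only, and a difference between a line and them cannot be assigned to ChAT. Of 13 measured neuroblastoma markers 10 were higher and 0 lower in each line (summed intensity 13020 to 21450 in the 69-kDa line, 15870 to 23430 in the 82-kDa line and 1994 to 2502 in wild type), while 6 of 8 epithelial markers were lower in each line (377 to 439, 391 to 458 and 5566 to 6306). No marker was listed at 0. The part of this difference in the synthetase results was not tested. In RNA from whole cultures, fewer cells of a type and less RNA per cell cannot be told apart. The deposited values are linear RMA intensities, which have no scale common to different probe sets, so levels are compared only between arrays and not between genes.

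Stretches of promoter are shown for 7 members, because these genes are known as stress response targets and the data below turn on which of them move together. The composite site bound by ATF4 with C/EBP factors was searched as TGATGNAA on either strand. All sequences are RefSeq windows of GRCh38.p14, read 5′ to 3′ along the gene, from 100 bases before an annotated start to 30 bases after it (for AARS1 from 200 to 71 bases before it). Capitals mark TGATGNAA or its reverse complement in the first 5 and, in WARS1, a match to the core of the interferon-stimulated response element (TTTC, any 2 bases, TTTC, on either strand). SARS1, the only member called in both comparisons with wild type in the main fit of all arrays, holds neither motif in its windows.
AARS1, chr16:70289577-70289706, minus strand: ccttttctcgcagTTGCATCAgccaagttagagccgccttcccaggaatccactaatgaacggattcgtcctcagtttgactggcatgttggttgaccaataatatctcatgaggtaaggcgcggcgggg
GARS1, chr7:30594778-30594907, plus strand: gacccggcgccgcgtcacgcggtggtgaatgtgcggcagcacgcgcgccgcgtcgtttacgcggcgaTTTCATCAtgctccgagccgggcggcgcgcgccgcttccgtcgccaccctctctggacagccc
NARS1, chr18:57621807-57621936, minus strand: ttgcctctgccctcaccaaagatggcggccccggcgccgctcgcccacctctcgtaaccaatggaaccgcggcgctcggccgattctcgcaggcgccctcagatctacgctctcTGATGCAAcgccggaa
IARS1, chr9:92293668-92293797, minus strand: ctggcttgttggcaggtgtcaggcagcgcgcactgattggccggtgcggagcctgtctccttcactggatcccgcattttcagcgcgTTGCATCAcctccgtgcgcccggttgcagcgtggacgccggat
TARS1, chr5:33440865-33440994, plus strand: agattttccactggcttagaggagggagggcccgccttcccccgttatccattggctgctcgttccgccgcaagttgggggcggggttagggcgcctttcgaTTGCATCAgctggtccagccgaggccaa
WARS1, chr14:100375318-100375447, minus strand: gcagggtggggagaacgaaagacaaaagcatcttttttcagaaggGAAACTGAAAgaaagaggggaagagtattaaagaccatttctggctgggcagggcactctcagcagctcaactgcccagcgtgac
SARS1, chr1:109213793-109213922, plus strand: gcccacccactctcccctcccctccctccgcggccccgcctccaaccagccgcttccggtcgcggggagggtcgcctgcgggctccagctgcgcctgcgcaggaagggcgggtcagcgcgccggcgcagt

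Of the 10 genes 9 (all but LARS1) matched promoter windows, 13 in all, of 300 bases each (250 before the start and 50 after it). TGATGNAA was present in 6 of the 13, in 1 window each of AARS1, GARS1, MARS1, NARS1, IARS1 and TARS1. It was present in 3.62% of all 35116 windows of that length. The narrower TGATGCAA, which is contained in TGATGNAA, was in 5 member windows and in 0.866% of all windows, and GARS1 was the gene that held only the wider form. The first base of the match lay 33 bases before the start in GARS1, 13 in IARS1, 4 in MARS1 and 187 in AARS1, and at base 3 and base 15 of the transcript in TARS1 and NARS1. The E-box CACGTG, which reads the same on either strand and can be bound by MYC proteins, was in 1 member window, that of IARS1, and in 7.26% of all. The interferon element core was in 1, that of WARS1, and in 3.57% of all. These are matches of letters and not measured binding.

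SARS1, seryl-tRNA synthetase, was the only member gene called higher than wild type in the ChAT lines in the main fit (limma, all arrays). GARS1 and EPRS1 also read higher in both lines on average, but neither passed in that fit. SARS1 read 4793, 2225 and 2374 with 69-kDa ChAT, 2157, 2672 and 2989 with 82-kDa ChAT, and 1553, 1191 and 1423 in wild type. Every array of either line was above every wild-type array, and replicate 1 of the 69-kDa line was far above the rest. The gene was 2.13-fold higher in the 69-kDa line (log2 difference 1.09, SE 0.28, limma adjusted p = 0.019) and 1.87-fold higher in the 82-kDa line (0.90, SE 0.28, adjusted p = 0.042). With replicate 1 of the 69-kDa line left out it was 1.66-fold higher in that line (adjusted p = 0.011), and in replicates 2 and 3 alone it was 1.77-fold and 2.17-fold higher in the 69-kDa and the 82-kDa line (adjusted p = 0.0011 and 0.00028). Of all probe sets 18.5% and 19.4% were called higher, and 20.5% and 20.2% lower, in replicates 2 and 3 alone, and 11.7% and 12.7% higher, and 14.7% and 16.9% lower, without replicate 1 of the 69-kDa line. Over all alternatives the adjusted p ranged from 0.00093 to 0.071 in the 69-kDa line and from 0.00026 to 0.13 in the 82-kDa line. In the 82-kDa line the call was lost when replicate 2 or 3 of that line, or any wild-type array, was left out (adjusted p = 0.11, 0.12, 0.069, 0.13 and 0.095), and after quantile normalization (0.056). Neither call passed a threshold of 0.01. In the 69-kDa line it was lost without wild-type replicate 2 (0.071) or 3 (0.052).

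So 1 of 9 member genes was called higher and 0 lower in each comparison with wild type, where limma called 10.9% of all probe sets higher and 15.3% lower in the 69-kDa line, and 11% and 15.7% in the 82-kDa line. A share of 1 in 9 is near that background. The median log2 difference of the 9 genes was -0.07 for the 69-kDa line and -0.23 for the 82-kDa line, beside 0.05 and 0.05 over all genes. The comparisons share their 3 wild-type arrays.

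**Figure D1:**
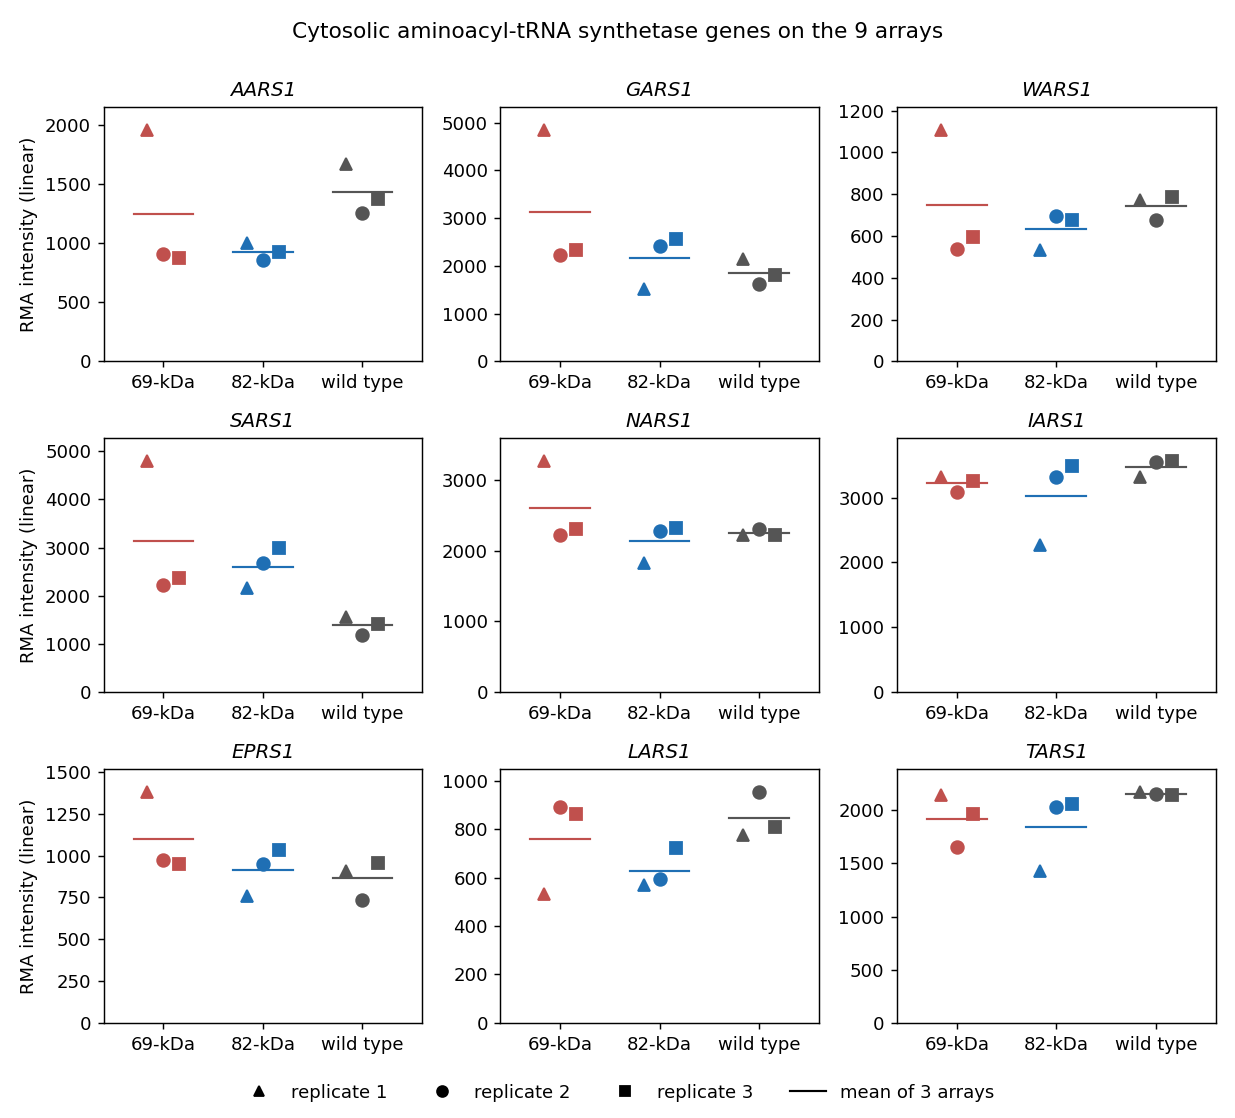
RMA intensity (linear axis from 0) of the 9 member genes on each array, by group, with replicate numbers as symbols and the mean of 3 arrays as a line. Replicate 1 of the 69-kDa line (red triangle) is the highest array for AARS1, GARS1, WARS1, SARS1, NARS1 and EPRS1 and the lowest for LARS1, while replicate 1 of the 82-kDa line (blue triangle) is the lowest for GARS1, WARS1, NARS1, IARS1 and TARS1.

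GARS1, glycyl-tRNA synthetase, read 4837, 2219 and 2336 with 69-kDa ChAT, 1520, 2422 and 2553 with 82-kDa ChAT, and 2137, 1629 and 1808 in wild type. The arrays of the 69-kDa line were all above wild type, but only replicate 1 stood far off, and replicate 1 of the 82-kDa line was below every wild-type array. The log2 difference was 0.66 in the 69-kDa line (95% interval -0.05 to 1.38, adjusted p = 0.17) and 0.19 in the 82-kDa line (-0.52 to 0.90, adjusted p = 0.68). In replicates 2 and 3 alone, GARS1 was 1.33-fold higher in the 69-kDa line (adjusted p = 0.0061) and 1.45-fold higher in the 82-kDa line (0.0019). Over all alternatives the adjusted p ranged from 0.0061 to 0.42 and from 0.0019 to 0.92.

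AARS1, alanyl-tRNA synthetase, read 1957, 909 and 880 with 69-kDa ChAT, 1002, 863 and 923 with 82-kDa ChAT, and 1668, 1260 and 1372 in wild type. The 82-kDa arrays were all below wild type, and so were 2 of the 3 arrays of the 69-kDa line, with replicate 1 of that line as the highest of all 9. With all arrays the log2 differences were -0.29 (95% interval -0.93 to 0.34, adjusted p = 0.50) and -0.62 (-1.26 to 0.02, adjusted p = 0.15). With the replicate number as a block the gene was called lower in the 82-kDa line (same difference, adjusted p = 0.043), while in the 69-kDa line it was not (0.27), and the block called 20.3% and 19.9% of all probe sets lower. In the 8 arrays other than replicate 1 of the 69-kDa line AARS1 fell by 0.67 in the 69-kDa line (adjusted p = 0.006) and by 0.62 in the 82-kDa line (adjusted p = 0.0047). That fit called 14.7% and 16.9% of all probe sets lower. The array left out enters the 82-kDa comparison only through the shared estimate of the spread, so the difference of that line did not change. Over all alternatives the adjusted p ranged from 0.0012 to 0.84 in the 69-kDa line and from 0.0012 to 0.32 in the 82-kDa line.

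WARS1, tryptophanyl-tRNA synthetase, read 1105, 539 and 597 with 69-kDa ChAT, 533, 698 and 674 with 82-kDa ChAT, and 773, 674 and 786 in wild type. Its other probe set read 901, 479 and 543, then 324, 542 and 566, then 565, 688 and 699. On either probe set the highest array was replicate 1 of the 69-kDa line and the lowest was replicate 1 of the 82-kDa line. No difference from wild type passed (log2 -0.07 and -0.24 on the brighter probe set, adjusted p = 0.86 and 0.52, and -0.07 and -0.48 on the other, 0.87 and 0.24). In replicates 2 and 3 alone the brighter probe set was 0.36 lower on the log2 scale in the 69-kDa line (log2 -0.36, adjusted p = 0.024). For that comparison the adjusted p ranged over the alternatives from 0.024 to 0.96.

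NARS1, the asparaginyl enzyme, varied little outside the replicate 1 arrays. TARS1, the threonyl enzyme, also departed from wild type on replicates 2 and 3 of the 69-kDa line (1658 and 1964). NARS1 read 3265, 2226 and 2300 with 69-kDa ChAT, 1824, 2279 and 2323 with 82-kDa ChAT, and 2228, 2306 and 2218 in wild type. Leaving the replicate 1 arrays aside, its values in the lines lay within 2226 to 2323, close to wild type. TARS1 read 2146, 1658 and 1964 with 69-kDa ChAT, 1430, 2032 and 2057 with 82-kDa ChAT, and 2172, 2154 and 2147 in wild type, so that all arrays of the lines were below all wild-type arrays, narrowly for replicate 1 of the 69-kDa line (2146 against 2147) and furthest for replicate 1 of the 82-kDa line. The log2 differences from wild type were 0.18 and -0.08 for NARS1 (95% intervals -0.17 to 0.54 and -0.44 to 0.28) and -0.17 and -0.25 for TARS1 (-0.52 to 0.17 and -0.60 to 0.10). None of these passed (adjusted p = 0.44, 0.73, 0.46 and 0.28). For TARS1 in the 69-kDa line the limma adjusted p ranged from 0.029 to 0.79 over all alternatives.

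Among the members of the multi-synthetase complex, IARS1, the isoleucyl enzyme, read 3316, 3091 and 3261 with 69-kDa ChAT, 2262, 3316 and 3484 with 82-kDa ChAT, and 3321, 3554 and 3562 in wild type. It was the member that varied least in the 69-kDa line (SD 0.053 on the log2 scale), and its low array was replicate 1 of the 82-kDa line. Its log2 differences from wild type were -0.11 (adjusted p = 0.64) and -0.23 (adjusted p = 0.31). LARS1, the leucyl enzyme, read 531, 892 and 861 with 69-kDa ChAT, 570, 593 and 721 with 82-kDa ChAT, and 777, 953 and 811 in wild type. It was the member with the opposite pattern on replicate 1 of the 69-kDa line, which was its lowest array. All 82-kDa arrays were below all wild-type arrays (log2 difference -0.43, 95% interval -0.89 to 0.02, adjusted p = 0.15). The gene was called lower once replicate 1 of the 69-kDa line was left out (adjusted p = 0.026), as were 16.9% of all probe sets. That array is in neither group compared and enters only through the shared estimate of the spread, so the difference did not change. Over all alternatives the adjusted p ranged from 0.0081 to 0.36. The LARS1 probe set has the suffix _x_at, which marks probes that can match other transcripts.

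EPRS1, which carries the glutamyl and prolyl activities in 1 protein, was measured by 3 probe sets. The brightest read 1380, 972 and 952 with 69-kDa ChAT, 756, 951 and 1035 with 82-kDa ChAT, and 906, 737 and 956 in wild type, and its groups overlapped. The log2 differences from wild type were 0.33, 0.39 and 0.58 in the 69-kDa line in order of brightness (adjusted p = 0.23, 0.063 and 0.13) and 0.07, 0.27 and 0.57 in the 82-kDa line (0.78, 0.19 and 0.13). All 3 probe sets read higher in the lines, and none passed. Wild-type replicates 2 and 3 differed 2.10-fold on the dimmest probe set (339 and 712).

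**Figure D2:**
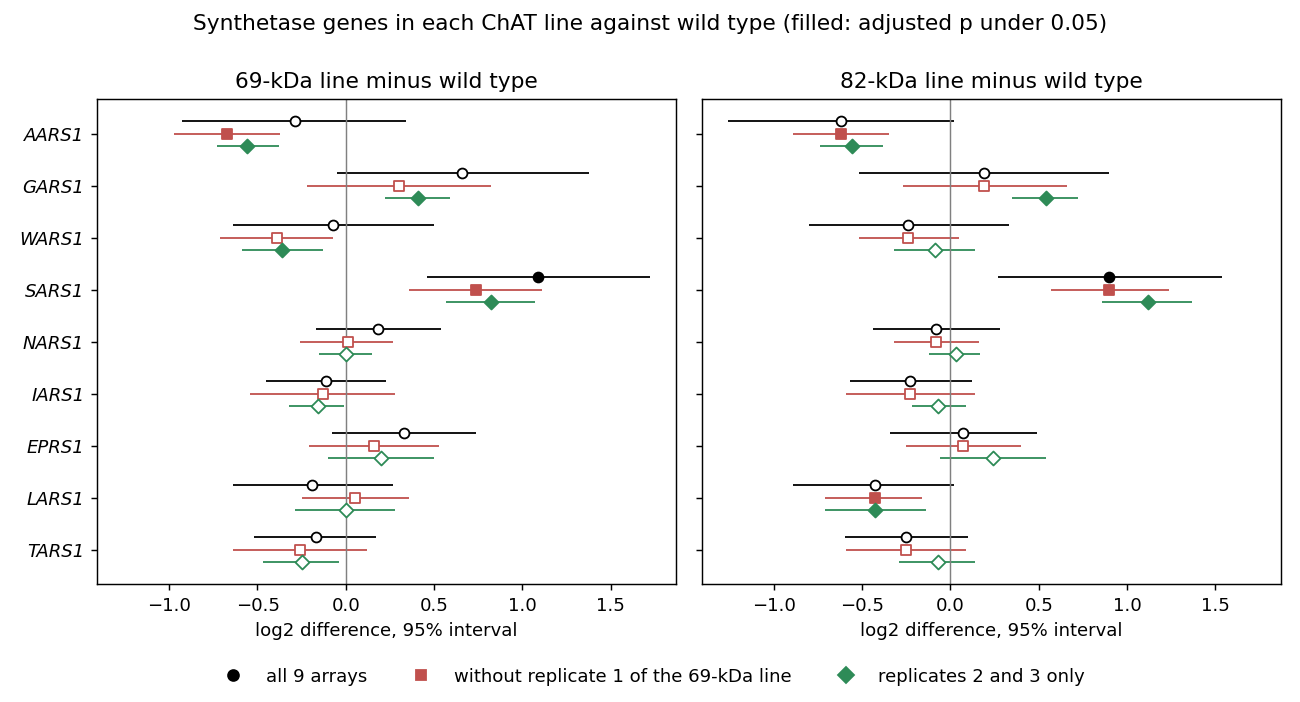
Log2 difference of each line from wild type with its 95% interval (limma), for the 9 member genes, from all 9 arrays (black), without replicate 1 of the 69-kDa line (red) and in replicates 2 and 3 only (green). Filled symbols have an adjusted p under 0.05. SARS1 is filled in all 6 estimates, and AARS1 is filled, below 0, in the 4 made without that array.

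No member was called different between the 82-kDa and the 69-kDa line, where limma called 0 of the 22215 probe sets (0% of those tested; 733, or 3.30%, at an unadjusted p under 0.05, none of them the probe set that stands for a member). All 9 member genes read lower in the 82-kDa line, from -0.08 for TARS1 to -0.47 for GARS1 on the log2 scale. The 95% intervals still allow sizeable differences, from -1.18 to 0.24 for GARS1, -0.96 to 0.31 for AARS1 and -0.82 to 0.45 for SARS1. In replicates 2 and 3 alone the differences for SARS1, WARS1 and GARS1 were 0.30, 0.27 and 0.13, and those for TARS1, IARS1, EPRS1 and NARS1 were 0.18, 0.10, 0.04 and 0.02, so that 7 of 9 had the opposite direction. AARS1 was at 0 and LARS1 at -0.42. None was called (adjusted p from 0.18 for LARS1 to 1 for AARS1), where 2.04% of probe sets were called.

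The replicate 1 arrays set most of the spread within the lines. On replicate 1 of the 69-kDa line 4 of the 9 member genes were at least 1.5-fold above the mean of replicates 2 and 3 of that line, AARS1 by 2.19-fold, GARS1 by 2.12-fold, SARS1 by 2.09-fold and WARS1 by 1.95-fold. NARS1 (1.44-fold), EPRS1 (1.43-fold) and TARS1 (1.19-fold) followed, IARS1 was level (1.04-fold), and LARS1 was 1.65-fold below. Of all probe sets 3.91% were as far above and 7.54% as far below on that array. It was the highest of the 9 arrays for 6 of the 9 member genes and for 17.9% of all probe sets. These are descriptions of 1 array with no test.

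Set beside the promoters, the 5 measured members with TGATGNAA in a window stood on that array at 2.19-fold (AARS1), 2.12-fold (GARS1), 1.44-fold (NARS1), 1.19-fold (TARS1) and 1.04-fold (IARS1). The 3 measured members with windows but no such match stood at 2.09-fold (SARS1), 1.95-fold (WARS1) and 1.43-fold (EPRS1). The ranges overlap, and no test was made.

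On replicate 1 of the 82-kDa line all member genes but AARS1 (1.12-fold above) were below the mean of replicates 2 and 3. Their median log2 difference was -0.39, beside -0.35 for the other cytosolic synthetases and complex proteins and 0.03 for all genes. The share of all probe sets below that mean was not counted. On that array 0 of the 9 member genes were 1.5-fold above replicates 2 and 3 (4.51% of all probe sets were). As far below were 2 (9.05% of all), GARS1 by 1.64-fold and IARS1 by 1.5-fold. On replicate 1 of wild type 0 were past 1.5-fold in either direction (1.05% and 2.24% of all probe sets were), and the largest departure was 1.27-fold, at AARS1. Replicates 2 and 3 of a line differed little, by 1.02-fold to 1.18-fold in the 69-kDa line and 1.01-fold to 1.22-fold in the 82-kDa line on the brightest probe sets.

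Averaged over the groups in a fit with group and replicate number, replicate 1 differed from replicates 2 and 3 at 0 of the 9 member genes, where 27.7% of all probe sets were called (14.8% higher and 13.0% lower). At an unadjusted p under 0.05 there were 2, AARS1 (log2 0.55, adjusted p = 0.051) and LARS1 (-0.37, adjusted p = 0.073). Of the calls over all probe sets 53.2% were higher on replicate 1, and 29.2% after median centring of each array. On the brightest probe sets, AARS1 alone was above its own replicates 2 and 3 on the replicate 1 array of every group (2.19-fold, 1.12-fold and 1.27-fold), as was 1 of the dimmer EPRS1 probe sets (1.29-fold, 1.04-fold and 1.13-fold). The AARS1 call passed under 5 of 21 alternatives (adjusted p from 0.024 to 0.11 over all of them). When replicate 1 of the 82-kDa line was left out, AARS1 and GARS1 were both called higher on replicate 1 (log2 0.74 and 0.70, adjusted p = 0.043 and 0.045), where 7.47% of all probe sets were called higher.

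Some measures of array quality differed on replicate 1. In both lines its ratio of 3′ to 5′ ACTB signal, a measure of RNA integrity and priming, was low (0.703 for 69 kDa and 0.709 for 82 kDa, 0.831 to 1.08 elsewhere, with 0.847 on wild-type replicate 1), while the GAPDH ratio was 0.98 to 1.06 on replicate 1 and 0.95 to 1.05 on the others. The spiked-in control bioD gave 761 to 1033 when replicate 1 was read and 1530 to 2308 on the remaining 6 arrays. The summed neuroblastoma markers were 13020 on replicate 1 of the 69-kDa line against 19830 and 21450 on its other arrays, and 15870 against 21410 and 23430 for the 82-kDa line. The part of these values in the results was not tested.

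Genes of the integrated stress response and of amino acid supply stood apart on the same array. Of 19 measured stress response genes 13 were at least 1.5-fold up and 1 as far down on replicate 1 of the 69-kDa line (median 1.97-fold), and of 22 measured genes of amino acid synthesis and import 16 were up and 0 down (median 1.69-fold). On that array 3.91% of all probe sets were as far up and 7.54% as far down. The synthetases had a median of 1.44-fold, and all genes a median log2 difference of 0.03. ATF4 read 4629 on that array against 2600 and 2912 on the others of the line. The stress response factors ATF5 (2464 against 323 and 325), CEBPB (1130 against 150 and 145) and DDIT3 (900 against 213 and 189) were among those that stood out, and asparagine synthetase, ASNS, read 4165 against 917 and 999. These 5 genes were named after their values were seen. On replicate 1 of the 82-kDa line 0 of the 19 stress response genes were 1.5-fold up and 2 were down, and of the 22 amino acid genes 0 were up and 8 down. Of all probe sets 4.51% were as far up and 9.05% as far down there, so the stress response count down was near that share.

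**Figure D3:**
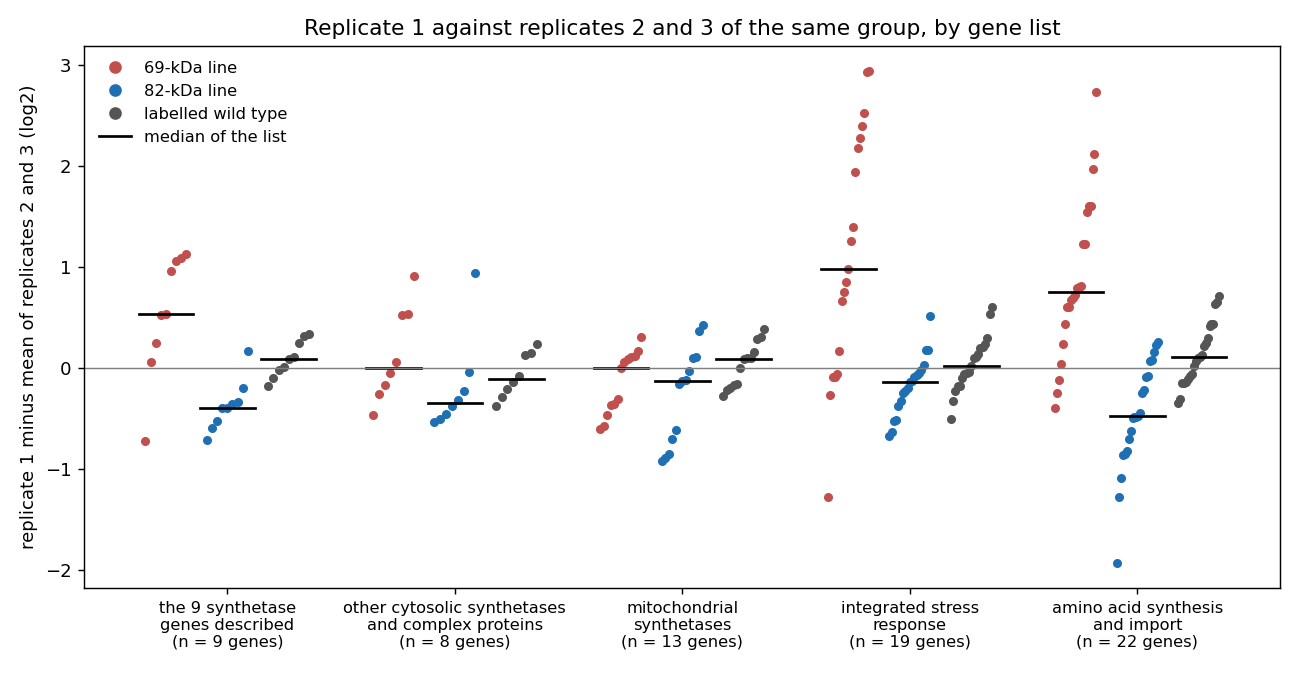
Log2 difference of replicate 1 from the mean of replicates 2 and 3 of its own group, 1 point per gene (brightest probe set) in 5 gene lists, with the list's median as a black bar. On the 69-kDa line (red) the median fold is 1.44 for the synthetases described, 1.97 for stress response genes and 1.69 for amino acid genes, while the median log2 difference is 0.01 for the other cytosolic and 0 for the mitochondrial synthetases.

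The probe sets whose pattern over the 9 arrays was most like the mean of the 9 members, among 9885 brighter than the median, were those of LONP1, a mitochondrial protease (Pearson r = 0.989), CARS1, cysteinyl-tRNA synthetase (0.986), ZNF282 (0.975), ASNS (0.965) and SMUG1, a DNA repair glycosylase (0.957). Without replicate 1 of the 69-kDa line these were 0.96, 0.98, 0.91, 0.88 and 0.86 over 8 arrays. Those 8 still hold replicate 1 of the 82-kDa line, the lowest array for each of these probe sets. The probe sets were also picked by their correlation over all 9 arrays, so the 8-array values are no separate check. This CARS1 probe set, which is not the brightest of its gene, read 365, 226 and 225 with 69-kDa ChAT, 157, 229 and 262 with 82-kDa ChAT, and 237, 215 and 230 in wild type. The mean member profile itself was 0.49 above its average on replicate 1 of the 69-kDa line, 0.35 below it (log2 -0.35) on replicate 1 of the 82-kDa line, and within -0.11 to 0.06 on the other 7 arrays.

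The members did not all follow each other. Over the 9 arrays, GARS1 and EPRS1 correlated at 0.95, IARS1 and TARS1 at 0.92, and SARS1 and LARS1 at -0.70. In 8 arrays, with that array left out, the pair AARS1 and SARS1 went from 0.01 to -0.82, and GARS1 and WARS1 from 0.71 to 0.14, while IARS1 and TARS1 stayed at 0.93. The points share groups and replicate numbers, so these values describe the arrays only.

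The remaining cytosolic synthetases and complex proteins fell or did not pass. Of 13 listed genes 8 were measured. In the 69-kDa line 0 rose and 2 fell, beside 10.9% and 15.3% of all probe sets. In the 82-kDa line 0 rose and 3 fell, beside 11% and 15.7%. The median log2 difference was -0.25 and -0.32 (all genes 0.05). KARS1, the lysyl enzyme of the complex, was 1.59-fold and 1.73-fold lower in the 69-kDa and the 82-kDa line (adjusted p = 0.01 and 0.0044), and read 2175, 2547 and 2675, then 1789, 2412 and 2658, against 3664, 3896 and 4191 in wild type. YARS1, the tyrosyl enzyme, was 1.65-fold and 1.76-fold lower (adjusted p = 0.014 and 0.0075), and HARS1, the histidyl enzyme, was 1.23-fold lower in the 82-kDa line (0.049). In the fit of replicate number 0 were higher and 2 lower on replicate 1, beside 14.8% and 13% of all probe sets. The 2 were FARSA, a subunit of the phenylalanyl enzyme (1.28-fold, adjusted p = 0.018), and KARS1 (1.23-fold, 0.028). On replicate 1 of the 69-kDa line 1 of the 8, CARS1, was past 1.5-fold higher, beside 3.91% of all probe sets. It was 1.87-fold higher on its brightest probe set (1908 against 950 and 1092).

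Of 13 measured genes of mitochondrial synthetases and tRNA charging, 0 rose and 3 fell in each line (median log2 -0.13 and -0.02). Limma called 10.9% of all probe sets higher and 15.3% lower in the 69-kDa line, and 11% and 15.7% in the 82-kDa line. SARS2, the mitochondrial counterpart of SARS1, was 1.67-fold and 1.64-fold lower (adjusted p = 0.002 and 0.0025), CARS2 1.70-fold and 1.43-fold (0.0024 and 0.019) and IARS2 1.53-fold and 1.57-fold (0.018 and 0.013). The cytosolic and the mitochondrial seryl enzymes thus differed from wild type in opposite directions. Of 28 measured genes of elongation and tRNA supply 4 rose and 8 fell in the 69-kDa line (median -0.03). In the 82-kDa line 4 rose and 7 fell (median -0.04). The same shares of all probe sets apply to these counts. POP1, a subunit of the RNases that process tRNA precursors, was 2.25-fold and 2.31-fold higher (adjusted p = 0.00014 and 0.00011). ELAC2, which trims the 3′ end of tRNA precursors, was 2.18-fold and 2.13-fold lower (0.0002 and 0.00023), and TRMT5, a tRNA methyltransferase, 2.17-fold and 2.25-fold lower (0.00025 and 0.00019). The TRMT5 probe set has the suffix _x_at, so its probes can match other transcripts. On replicate 1 the fit of replicate number called 0 of these 28 higher and 5 lower, beside 14.8% and 13% of all probe sets. The 5 were led by XPOT, the exporter of tRNA from the nucleus (1.80-fold lower, adjusted p = 0.0066). Of the 13 mitochondrial genes that fit called 0 higher and 4 lower, led by YARS2 (1.39-fold, 0.011).

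Against wild type 1 of 19 stress response genes was called higher and 1 lower in the 69-kDa line, beside 10.9% and 15.3% of all probe sets. In the 82-kDa line 0 were higher and 3 lower, beside 11% and 15.7%. The median log2 difference was -0.08 and -0.27. EIF2AK3, the kinase PERK that senses stress of the endoplasmic reticulum, was 1.56-fold higher in the 69-kDa line (adjusted p = 0.011). EIF2AK1, another kinase of the initiation factor eIF2, was 1.25-fold and 1.22-fold lower (0.02 and 0.036). ATF3 and CEBPG, transcription factors of the response, were 3.85-fold and 2.11-fold lower in the 82-kDa line (0.034 and 0.037). Without replicate 1 of the 69-kDa line 1 was higher and 5 lower in the 69-kDa line, beside 11.7% and 14.7% of all probe sets. In the 82-kDa line 0 were higher and 7 lower, beside 12.7% and 16.9%. The left-out array enters the 82-kDa comparison only through the shared estimate of the spread.

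Amino acid genes rose at 6 and fell at 1 of 22 in the 69-kDa line, beside 10.9% and 15.3% of all probe sets. They rose at 5 and fell at 1 in the 82-kDa line, beside 11% and 15.7% (median log2 0.36 and 0.16). SLC38A1, a glutamine transporter, was 2.56-fold and 2.53-fold higher (adjusted p = 0.0002 and 0.00021), PYCR1, of proline synthesis, 3.10-fold and 2.78-fold (0.00086 and 0.0015), and CBS, of cysteine synthesis, 2.72-fold and 2.69-fold (0.00096 and 0.001). Leaving out replicate 1 of the 69-kDa line, 6 rose and 3 fell in each line. Limma then called 11.7% of all probe sets higher and 14.7% lower in the 69-kDa line, and 12.7% and 16.9% in the 82-kDa line.

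Genes of the interferon gamma response are given because WARS1 belongs to the interferon-induced genes. In the 69-kDa line 0 of 17 rose and 5 fell, beside 10.9% and 15.3% of all probe sets. In the 82-kDa line 0 rose and 4 fell, beside 11% and 15.7%. HLA-E, an antigen-presenting molecule, was 4.63-fold and 5.08-fold lower (adjusted p = 7.9e-07 and 5.7e-07), HLA-F 2.99-fold and 3.06-fold (0.00014 and 0.00012), and TAP1, a peptide transporter, 2.41-fold and 2.42-fold (0.00034 and 0.00033). The HLA-E and HLA-F probe sets have the suffix _x_at, so their probes can match other transcripts. WARS1 was not called in either comparison. In the fit of replicate number 7 of the 17 were higher and 1 lower on replicate 1, beside 14.8% and 13% of all probe sets. The 7 were led by IDO1, which breaks down tryptophan (1.69-fold, adjusted p = 0.0032). Among them GBP2 (38.0 to 48.1) lay below the lower quartile of every array (55.9 to 62.5). PSMB8 and PSMB9 lay near it, and IDO1, TAP1, SOCS1 and ICAM1 above it. The part of scaling in these calls was not tested.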

How the data were processed

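RNA from 9 samples was hybridised to single-channel oligonucleotide arrays, 3 per group, with groups and replicate numbers from the sample titles. The authors deposited RMA intensities on a linear scale (RMA per the submitters' processing notes; version and software not given in the sources used here), from 14.9 to 21486, with array medians of 133.7 to 142.6. The 68 control probe sets were left out of the tests. A platform annotation gave 19065 probe sets 1 symbol, 1043 several and 2107 none, and only the first were named. Columns of other series and identical array pairs numbered 0.

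Log2 intensities of 22215 probe sets were fitted with limma 3.58.1 in R 4.3.3 (3 group means, eBayes, two-sided), with Benjamini-Hochberg adjustment over all of them and a threshold of 0.05. Intervals are unadjusted 95% intervals. Replicate 1 against 2 and 3 was fitted with group and replicate number. Nothing says how the replicates were grown, so p-values measure the spread between these samples. The fit was tested on simulated data. Members, gene lists, comparisons and alternatives were chosen with earlier results of these data known, and the 1.5-fold description was set after seeing values. Named genes were all members, then up to 3 called genes with the smallest adjusted p per list and comparison, CHAT, MYCN and the 5 probe sets most like the members. The number of arrays limits the precision.

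After group means were subtracted, arrays with 1 number in common correlated at 0.28 to 0.57 (9 pairs, each across probe sets). Replicates 2 and 3 of different groups correlated at 0.21 to 0.48, and replicate 1 with either at -0.59 to -0.28, so these values set replicate 1 apart and do not tell 2 from 3. The comparisons between groups were not paired. Because every same-numbered pair exceeded 0.1, the replicate number was also fitted as a block, as an alternative. The labels name no shared day. Blocked values are given where they change a call. Alternatives were scaling, pseudocounts of 1 and 16, filters, variance models, array weights, fewer arrays, the replicate block, each array left out, and a threshold of 0.01. Promoter windows came from RefSeq (GRCh38.p14).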

Additional observations from a re-analysis of the deposited data

Results flagged for a closer look

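On the brightest probe sets of 7 of the 9 measured synthetases, replicate 1 lay above replicates 2 and 3 in the 69-kDa line and below them in the 82-kDa line. The log2 difference of replicate 1 from the mean of replicates 2 and 3 for GARS1 was 1.09 (69 kDa) and -0.71 (82 kDa). In that order it was 1.06 and -0.39 for SARS1, 0.96 and -0.36 for WARS1, and 0.53 and -0.34 for NARS1. For EPRS1 it was 0.52 and -0.39, for TARS1 0.25 and -0.52, and for IARS1 0.06 and -0.59. The other 2 EPRS1 probe sets gave 0.37 and 0.05, and 0.45 and -0.01, with no fall of that size in the 82-kDa line. The exceptions were AARS1, which was higher on replicate 1 of both lines, and LARS1, which was lower. Each value rests on 1 array against 2 of the same line, and the difference between the lines was not tested. The share of all probe sets with this pattern was not counted, so it is not shown to be particular to the synthetases. In the same order the list medians were 0.53 and -0.39 for the members and 0.75 and -0.47 for the amino acid genes. They were 0.01 and -0.35 for the other cytosolic synthetases and complex proteins, and 0.03 and 0.03 for all genes.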

How the results depend on the processing

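Of 763 values computed under alternatives for 9 genes in 4 comparisons, 687 kept their direction and their side of the threshold, 26 newly passed, 10 no longer passed and 40 changed sign. Most of the 687 were values not called in either fit. SARS1 was the only member called in the main fits, so no other gene had a call to lose. It kept its direction in all 10.

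Counts of called genes moved as follows. The share of all probe sets called was not worked out for scaling, filters, variance models, array weights, the fit of the 6 arrays compared or the stricter threshold. Counts under those settings therefore have no background beside them and are not read as results about the members. At a threshold of 0.01, 0 genes were higher in either line. Using replicates 2 and 3 only, each line had 2 higher and 2 lower. Of all probe sets 18.5% were then higher and 20.5% lower in the 69-kDa line, and 19.4% and 20.2% in the 82-kDa line. With array weights 3 were lower in the 69-kDa line (AARS1, WARS1 and TARS1), and 2 were higher and 2 lower in the 82-kDa line. Quantile normalization left 0 higher in the 82-kDa line, and a fit of the 6 arrays compared called 2 lower there. With the replicate block 1 was lower in the 82-kDa line (AARS1), beside 20.3% of all probe sets, and the block changed no other member call. Leaving out 1 array gave 0 to 1 higher and 0 to 1 lower in the 69-kDa line, and 0 to 1 and 0 to 2 in the 82-kDa line. In those fits 7.94% to 13.1% of all probe sets were higher and 12.2% to 17.2% lower in the 69-kDa line. In the 82-kDa line these shares were 8.2% to 12.7% and 12.9% to 16.9%. Between the lines, array weights called 1 lower, LARS1. For replicate 1 against the others 1 gene was higher under quantile normalization, without dim probe sets, with 1 probe set per gene, and with trend and robust variances, 1 was lower under median centring, and 0 to 2 were higher when 1 array was left out.

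Changes of sign (log2 differences) were as follows, with no value called on the side opposite to the estimate from all arrays. In the 69-kDa line against wild type WARS1 was 0.04 after quantile normalization and -0.39 to 0.13 with 1 array left out, and LARS1 was 0.01 with array weights and -0.32 to 0.05. In the 82-kDa line NARS1 was 0.01 with array weights, 0.03 in replicates 2 and 3, and -0.14 to 0.03, and EPRS1 -0.04 to 0.21. Between the lines array weights gave 0.08 for GARS1, 0.29 for WARS1, 0.24 for SARS1, 0.01 for NARS1, 0.08 for IARS1 and 0.21 for TARS1. Replicates 2 and 3 alone gave 0.13, 0.27, 0.30, 0.02, 0.10 and 0.18 for those genes and 0.04 for EPRS1. With 1 array left out AARS1 ranged from -0.52 to 0.05, WARS1 from -0.37 to 0.15, SARS1 from -0.39 to 0.17, IARS1 from -0.23 to 0.08 and TARS1 from -0.18 to 0.10. For replicate 1 against the others, quantile normalization gave 0.08 for IARS1 and 0.20 for TARS1, and median centring -0.02 for NARS1. With 1 array left out GARS1 ranged from -0.20 to 0.70, WARS1 from -0.14 to 0.52, SARS1 from -0.07 to 0.66, NARS1 from -0.18 to 0.25, EPRS1 from -0.14 to 0.32 and TARS1 from -0.25 to 0.13. The cause was not tested.

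The limits are 3 arrays per group, of which replicate 1 departs from the others in each line, a wild-type label that the markers go against, and 1 line per ChAT form.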
